A study of Homo sapiens with 8 samples.

Results

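Translation of messenger RNA was described here through 52 genes that make the protein synthesis machinery or act on it: 33 genes named as initiation factors, 6 named as elongation factors and 13 aminoacyl-tRNA synthetases. They were chosen by name from the deposited channel table (names beginning EIF or EEF and a digit, and names of a single letter followed by ARS), without the gene WARS and without the EIF2AK kinases. They came from 110 spots of 68 cDNA clones, out of 14427 clone spots, and 52 of the 9841 genes tested. The array names are partly old: 26 member symbols were current, 21 were older names with a single match in RefSeq (assembly GRCh38.p14), and 5 (EIF1A, GARS, MARS, QARS and SARS) had several matches and were read from the clone titles as EIF1AX, GARS1, MARS1, QARS1 and SARS1. EIF2C1 is a member by its name only, since it is now AGO1, an Argonaute protein of small RNA silencing. EIF4EBP1 and EIF4EBP2 carry initiation factor names but are inhibitors that bind the cap-binding protein.

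The samples were 4 lines derived from A2780, a human ovarian carcinoma line, that resist the platinum drug cisplatin, named CPR20, CPR40, CPR55 and CPR70. Each was hybridised on 2 spotted cDNA arrays against the parental line, CPR00. The derivative was in the red dye (Cy5) and the parental line in the green dye (Cy3) on all 8 arrays, from cells grown in RPMI1640 with serum and with no drug named at harvest. The labels give neither a unit for the number in a derivative's name nor how the derivatives were raised, nor whether each is 1 clone or whether its 2 arrays came from separate cultures, so the p-values may measure technical spread alone. Because the parental RNA is always the green channel, the tests against it leave out its own spread, and a dye effect particular to a clone adds to them.

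In cells, the initiation factors bring the small ribosomal subunit, the initiator tRNA and the capped end of a messenger RNA together. The elongation factors then deliver charged tRNAs and move the ribosome along, and each tRNA synthetase joins 1 amino acid to its tRNAs. Synthetase genes are known in mammals as targets of ATF4, the transcription factor of the amino acid and endoplasmic reticulum stress response, which pairs with C/EBP family proteins on composite elements with the letters TGATGNAA.

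The 11 synthetases with a promoter window in the RefSeq table (GRCh38.p14, 250 bases before to 50 after an annotated start) fell into those with and without these letters on either strand, and their sequences are shown first because the array values are set beside them further on. The 7 with a match are written 5′ to 3′ on the gene's own strand, with the match in capitals. The search was made with the array values known.
AARS1, chr16:70289675-70289704, minus strand: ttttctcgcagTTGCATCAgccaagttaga
CARS1, chr11:3057407-3057436, minus strand: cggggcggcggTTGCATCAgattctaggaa
GARS1, chr7:30594834-30594863, plus strand: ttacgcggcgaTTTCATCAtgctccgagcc
IARS1, chr9:92293692-92293721, minus strand: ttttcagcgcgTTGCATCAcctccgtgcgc
MARS1, chr12:57488053-57488082, plus strand: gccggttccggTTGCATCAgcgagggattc
NARS1, chr18:57621804-57621833, minus strand: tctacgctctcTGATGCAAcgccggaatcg
TARS1, chr5:33440956-33440985, plus strand: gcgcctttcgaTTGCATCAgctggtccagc

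For comparison, the 30 bases just before the annotated start of 2 synthetases without a match are these.
HARS1, chr5:140691371-140691400, minus strand: tgcgacccagcgactcgatagccggaagtc
KARS1, chr16:75647666-75647695, minus strand: tgacctggaaattaacgtactatcctcctt

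In 6 of the 7 the match read TTGCATCA or TTTCATCA on the gene's strand, which is TGATGNAA on the other strand, and in NARS1 it read TGATGCAA forward. Counted from the annotated start (the first transcribed base is 1 and there is no base 0), the match began at base -187 in AARS1 and between base -33 and base 15 in the other 6. These letters were found in 1270 of 35116 promoter windows (3.62%) and in at least 1 window of 1217 of 27305 genes (4.46%). They were found in 7 of the 11 synthetases with a window, in 0 of the 31 other members with a window, and in 0 of 33 other translation genes with a window. Those 33 include 6 further synthetases (EPRS1, FARSA, FARSB, FARS2, HARS2 and WARS2), which had no match and whose mean log2 ratios on the arrays ran from 0.001 to 0.12, with none called. A match of letters is a description of the window and not a binding site.

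Values below are log2 ratios of derivative over parental line after loess normalisation within each array, so that 0 means equal signal and values below 0 mean less signal in the derivative. A gene with several clones is represented by its brightest clone. A gene was called changed where limma's test, adjusted by Benjamini-Hochberg over all 13186 clones tested, gave a p under 0.05. Between 12759 and 14373 clone spots were found per array. Member spots exceeded the level of the array's empty spots in 70.9% to 90.9% of cases in red and 66.4% to 82.7% in green, against 26.4% to 60.3% and 20.3% to 41.9% of all clone spots. These shares count spots and not genes. Clones of EEF1G, EIF2B5, EIF2S2, HARS, EIF4A2 and EIF4A1 hold 8 spots each. By their averages, these clones were above the empty spots on all 8 arrays in both channels. Of the markers looked for, vimentin (VIM) was above the empty spots on all 8 arrays in both channels, with a mean log2 ratio of 0.48 (limma adjusted p = 0.0420). Keratin 18 (KRT18) was above them on 8 arrays in red and 4 in green, while KRT8, KRT19, PAX8 and WT1, also looked for as markers of the line, were above on at most 1 array per channel. N-cadherin (CDH2), the other marker of the line, was above on 5 arrays in red and 1 in green, with a mean of 0.76 that did not pass (limma adjusted p = 0.0654). The blood and endothelial markers PTPRC, CD3D, CD14 and PECAM1 were above on at most 1 array, and albumin (ALB), a marker looked for as absent, on 7 in red and 0 in green, with a mean of 0.93 (limma adjusted p = 0.0137). The part of these markers in the results was not tested.

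Across the mean of the 4 derivatives, 8 of the 52 members were called, 2 higher and 6 lower than in the parental line, where 11.7% of all genes were called (6.84% higher and 4.89% lower). The 8 were the initiation factors EIF4A2 and EIF4EL3 (higher) and EIF2S2 (lower), the elongation factors EEF1G and EEF2 (lower), and the synthetases AARS, GARS and YARS (lower). With the replicate number as a block, the same fit called 17 members, 5 higher and 12 lower, against 11.1% and 9.21% of all genes. This block takes the difference between the replicate sets out of the error, so members whose sets disagree can pass. With the block as a random term, whose correlation is estimated from the data, 1 higher and 0 lower were called, and EIF4A2 was the one that remained. The split of 2 against 6 was 1 against 1 with median centring and with normexp, and without the CPR20 replicate 2 array it was 1 against 1, so no lean to lower values is read from the calls. At an unadjusted p under 0.05 the first fit gave 19 of the 52, beside 27.3% of all genes.

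By class, 2 of 33 initiation factors rose, 1 fell and 30 did not pass. Of the 6 elongation factors, 2 fell and 4 did not pass. Of the 13 synthetases, 3 fell and 10 did not pass, and under the replicate block 2 rose, 7 fell and 4 did not pass. The median log2 ratio was 0.005 for initiation factors, -0.12 for elongation factors and -0.42 for synthetases, beside -0.003 over all 9841 genes. In the mean of the derivatives, synthetases were the class that lay furthest below all genes. Of the 13, 11 were below 0, beside 4969 of 9841 genes, and 7 were lower on all 8 arrays. On the replicate 2 arrays the elongation medians were lower, at -0.43, -0.33, -0.28 and -0.48 from CPR20 to CPR70. The synthetase medians there were -0.21, -0.12, -0.20 and -0.22. Over all 52 members, 12 were lower on all 8 arrays, where 6.04% of all genes were, and 3 were higher on all 8 arrays, where 8.07% of all genes were.

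**Figure D1:**
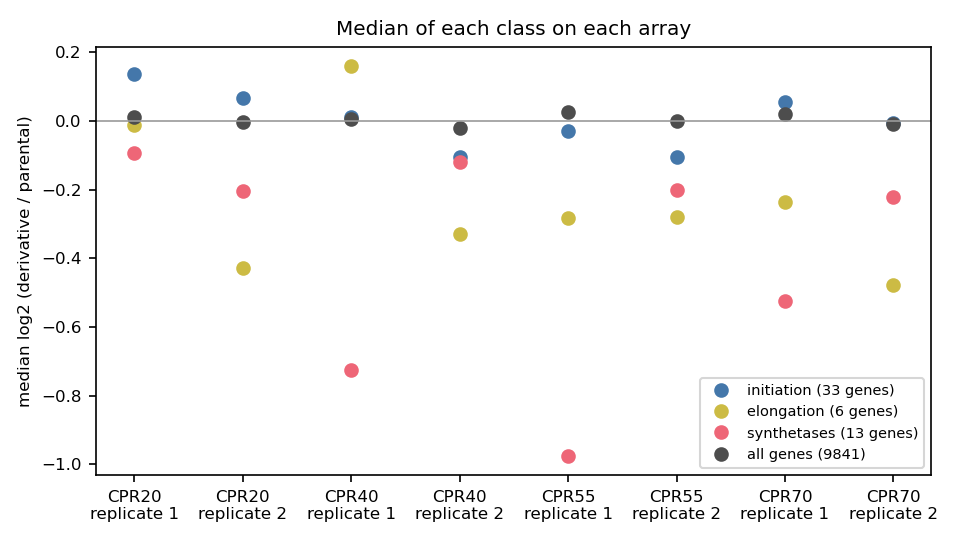
Median log2 ratio of derivative over parental line (vertical axis) of each class on each of the 8 arrays (horizontal axis), with the median of all genes in black. The synthetase median runs from -0.97 on the CPR55 replicate 1 array to -0.09 on the CPR20 replicate 1 array and is below the median of all genes on every array. On the replicate 2 arrays the elongation median is lower than the synthetase median.

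**Figure D2:**
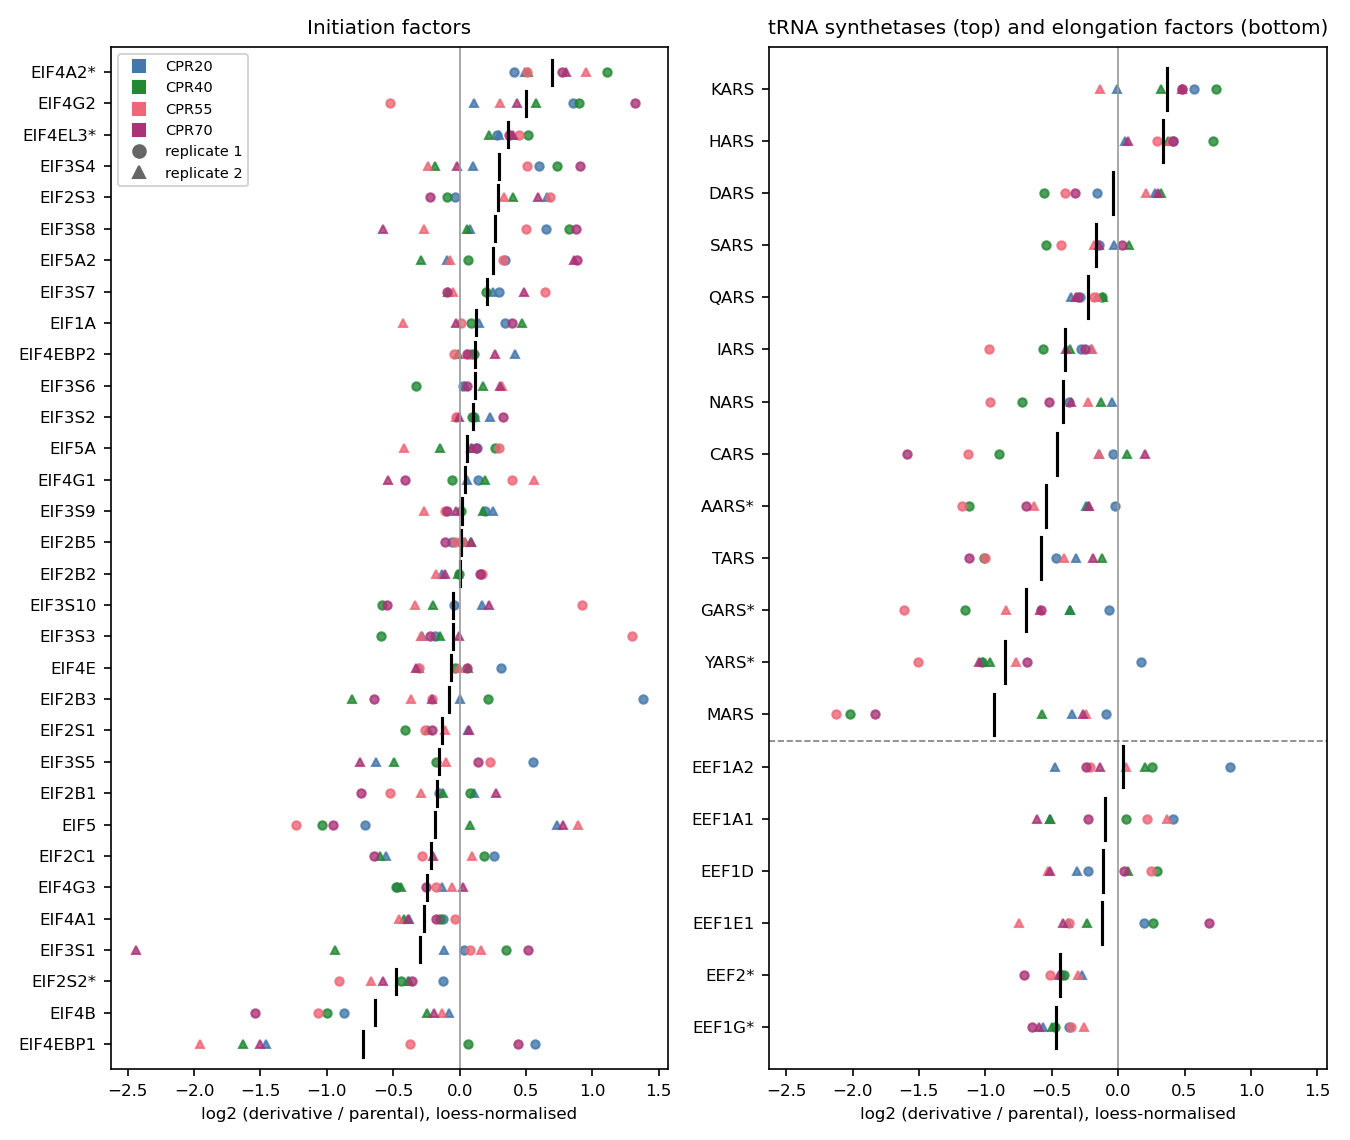
Log2 ratio (horizontal axis) of 51 members, 1 per line, on the arrays that measured them. Colour gives the derivative, the symbol gives the replicate number, the black bar is the fitted mean of the 4 derivatives, and an asterisk marks the 8 called members.

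The plot of members by array orders each class by its mean. The first steps of initiation are served by eIF2, which carries the initiator tRNA, and eIF2B, which reloads eIF2 with GTP. EIF2S2, the beta subunit of eIF2, read -0.13 and -0.39 in CPR20, -0.44 and -0.38 in CPR40, -0.91 and -0.66 in CPR55, and -0.36 and -0.57 in CPR70. It was lower on all 8 arrays and lowest in CPR55. The mean was -0.48 ± 0.10 (SE, 8 arrays; limma adjusted p = 0.0192), which is 1.40-fold lower. A second clone of the gene, also bright, fell by 0.55 (limma adjusted p = 0.0124). The call of the brightest clone held in 13 of 22 alternatives and was lost with median centring in place of loess (-0.30, adjusted p = 0.429).

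The other subunits of eIF2 did not pass with their brightest clones. EIF2S1, the alpha subunit that stress kinases phosphorylate, had a mean of -0.13 ± 0.11 over 7 arrays (limma adjusted p = 0.525), with array values from -0.41 to 0.07. Its dimmer clone was called in the opposite direction, with a mean of 0.56 (limma adjusted p = 0.0310) and values from 0.11 to 1.05, and was above the empty spots on 4 arrays in red and 2 in green. The gene's 2 clones thus disagreed in sign, and no direction is given for it. EIF2S3, the gamma subunit, had a mean of 0.29 (limma adjusted p = 0.241) with values from -0.22 to 0.68. Of the eIF2B subunits, EIF2B1, EIF2B2, EIF2B3 and EIF2B5 had means between -0.17 and 0.01 and none passed. The clone of EIF2B1 was above the empty spots on 3 arrays in red and 0 in green. That of EIF2B3 was above them on 2 in red and 1 in green, with values from -0.81 to 1.38.

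The clone of EIF2B5, the catalytic subunit, was printed at 8 spots per array, and the array means ran from -0.11 to 0.09. The 95% interval of its mean was -0.21 to 0.22.

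eIF3 is the large complex that holds the small ribosomal subunit and the messenger RNA. Its 10 measured subunits carry old names on the array (EIF3S1 to EIF3S10, now EIF3A to EIF3J without a fixed order). None of the 10 passed in the mean, and their means ran from -0.30 for EIF3S1 (EIF3J) to 0.30 for EIF3S4 (EIF3G). EIF3S1 carried the widest values of the 10, from -2.43 on the CPR70 replicate 2 array to 0.52 on the CPR70 replicate 1 array. EIF3S4 lay between 0.51 and 0.90 on the replicate 1 arrays and between -0.24 and 0.10 on the replicate 2 arrays. These 2 sets did not overlap. The block fit called EIF3S4 higher (limma adjusted p = 0.0473, and 0.0293 to 0.577 over the 22 alternatives run).

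The eIF4 group reads the cap and unwinds the leader of the messenger RNA. EIF4A2, one of the helicases of the group, read 0.41 and 0.49 in CPR20, 1.11 and 0.52 in CPR40, 0.50 and 0.95 in CPR55, and 0.77 and 0.80 in CPR70. All 8 arrays were higher than the parental line, with the lowest pair in CPR20. The mean was 0.69 ± 0.11 (SE, 8 arrays; limma adjusted p = 0.00743), a 1.62-fold rise and the smallest adjusted p of the 52 members. The call was lost in 2 of 22 alternatives, both of which start from the authors' own ratios without loess (limma adjusted p = 0.0920 and 0.0903). A second, dim clone gave 0.39 and did not pass (limma adjusted p = 0.116).

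EIF4A1, the paralog of EIF4A2 with the same helicase activity, lay on the other side of 0. It was lower on all 8 arrays, from -0.45 to -0.03, but its mean of -0.27 ± 0.11 did not pass (limma adjusted p = 0.156). cDNA clones of 2 such similar genes can bind each other's transcripts, and the size of this was not tested.

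EIF4EL3 (now EIF4E2), a relative of the cap-binding protein that represses translation of some messages, was also higher on all 8 arrays. It read 0.28 and 0.30 in CPR20, 0.52 and 0.22 in CPR40, 0.45 and 0.38 in CPR55, and 0.37 and 0.40 in CPR70. The values were closely grouped and did not separate the derivatives. The mean was 0.36 ± 0.09 (limma adjusted p = 0.0466), a 1.29-fold rise, and its second clone gave 0.28 and did not pass (limma adjusted p = 0.139). This call was held in 5 of 22 alternatives and was lost on leaving out any single array.

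The other eIF4 members did not pass. EIF4E, the cap-binding protein itself, had a mean of -0.07 from a clone above the empty spots on 2 arrays in red and 0 in green. EIF4G1, the scaffold of the complex, had a mean of 0.04. It was the 1 member with an unadjusted limma p under 0.05 for a difference of any kind between derivatives (0.0471, adjusted p = 1). Its brightest clone read 0.40 and 0.56 in CPR55 and -0.41 and -0.54 in CPR70. A second clone of EIF4G1 had the opposite order, with means of -0.16 in CPR55 and 0.22 in CPR70. It read 0.22 and -0.53 in CPR55 and 0.61 and -0.17 in CPR70. This clone was dim, above the empty spots on 2 arrays in red and 0 in green. EIF4G2, a scaffold relative that lacks the part binding EIF4E, had a mean of 0.50 ± 0.16 (limma adjusted p = 0.0888), with values from -0.53 to 1.32 and signal above the empty spots on 2 arrays in red and 0 in green. EIF4G3 had a mean of -0.25 and was lower on 7 of 8 arrays (limma adjusted p = 0.158).

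EIF4B, which stimulates the helicase, and EIF4EBP1, which blocks the cap-binding protein, had wide ranges, with replicate sets that did not overlap. EIF4B was lower on all 8 arrays, between -1.54 and -0.87 on the replicate 1 arrays and between -0.25 and -0.08 on the replicate 2 arrays. Its mean of -0.64 ± 0.20 did not pass (limma adjusted p = 0.0797) and passed with the replicate block (0.00510, in a range of 0.00510 to 0.237 over the alternatives). EIF4EBP1 lay between -0.37 and 0.57 on the replicate 1 arrays and between -1.95 and -1.45 on the replicate 2 arrays, without overlap. Its mean of -0.73 ± 0.34 did not pass (limma adjusted p = 0.212) and passed with the block (0.00288, in a range of 0.00113 to 0.586). Neither set alone stands for the other, since the replicate 1 mean was 0.17 and the replicate 2 mean -1.64. EIF4EBP2, the related inhibitor, had a mean of 0.12 (limma adjusted p = 0.490).

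The last steps of initiation involve eIF1A and eIF5, and eIF5A helps the ribosome over difficult stretches during elongation. EIF1A had a mean of 0.12 and EIF5A a mean of 0.05, and neither passed. EIF5A2, the paralog of EIF5A, was the member with the smallest p for a slope against the number in the derivatives' names (unadjusted p = 0.0453; adjusted p = 1). It read 0.88 and 0.86 in CPR70 and between -0.29 and 0.34 in the other derivatives, from a clone above the empty spots on 2 arrays in red and 0 in green. EIF5, which triggers GTP hydrolysis by eIF2, lay between -1.23 and -0.71 on the replicate 1 arrays and between 0.08 and 0.89 on the replicate 2 arrays. Its mean of -0.18 stands for neither set. EIF2C1 (AGO1) was not above the empty spots on any array in either channel, so its mean of -0.22 rests on background. A further initiation factor member, a dim clone, did not pass and is not described singly.

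Of the elongation factors, 2 fell and 4 did not pass. EEF1G, the gamma subunit of the complex that reloads eEF1A with GTP, read -0.37 and -0.57 in CPR20, -0.48 and -0.50 in CPR40, -0.36 and -0.26 in CPR55, and -0.65 and -0.60 in CPR70. All 8 arrays were lower, with the least shift in CPR55. The mean was -0.47 ± 0.09 (SE, 8 arrays; limma adjusted p = 0.0167), which is 1.39-fold lower. Its second clone, not above the empty spots on any array, gave -0.22 and did not pass.

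EEF2, the factor that moves the ribosome forward by 1 codon, read -0.43 and -0.27 in CPR20, -0.41 and -0.42 in CPR40, -0.51 and -0.30 in CPR55, and -0.71 and -0.45 in CPR70. It too was lower on every array. The mean was -0.44 ± 0.10 (limma adjusted p = 0.0256), 1.35-fold lower. Both falls depended on the normalisation within arrays: with median centring in place of loess EEF1G gave -0.26 (adjusted p = 0.528) and EEF2 gave -0.20 (adjusted p = 0.554). EEF1G was called in 13 and EEF2 in 9 of 22 alternatives, and their adjusted p over these ran from 0.00207 to 0.670 and from 0.00389 to 0.554.

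The remaining elongation factors had means near 0 from arrays that went both ways. EEF1E1, an auxiliary protein of the multi-synthetase complex, had a mean of -0.12 ± 0.15 with values from -0.74 to 0.69. EEF1A1, which delivers charged tRNAs, had a mean of -0.10 with values from -0.61 to 0.41. Its clone was above the empty spots on 4 arrays in red and 3 in green. EEF1D, another subunit of the reloading complex, had a mean of -0.11. EEF1A2, the tissue-restricted form of EEF1A1, had a mean of 0.04, from a clone above the empty spots on 2 arrays in red and 0 in green. The ratios of EEF1A1 and EEF1A2 thus rest in part on background. On each of the 4, derivatives and arrays lay on both sides of 0.

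For 6 members there was a clone printed at 8 spots per array, so its spots can be compared within and between arrays. EEF1G was below 0 at 63 of 64 spots, EIF2S2 at 61 of 64 and EIF4A1 at 58 of 64. EIF4A2 was above 0 at 62 of 64 spots and HARS at 59 of 63. EIF2B5 was above 0 at 40 and below at 23 of its 63 spots. The SD between spots of an array had a median of 0.125 for EEF1G, 0.204 for EIF2S2, 0.113 for EIF4A2, 0.0563 for HARS, 0.0887 for EIF4A1 and 0.106 for EIF2B5, while the SD between array means was 0.134, 0.236, 0.252, 0.210, 0.163 and 0.0686. The SD between array means exceeded the SD of single spots for 5 of the 6 clones and was below it for EIF2B5. This order does not set printing error against differences between arrays. An array mean averages the spots of the clone, so printing error moves it less than it moves a single spot. The SD between array means also includes differences between derivatives. Spots of a clone share its RNA and array and are not replicates of a condition.

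**Figure D3:**
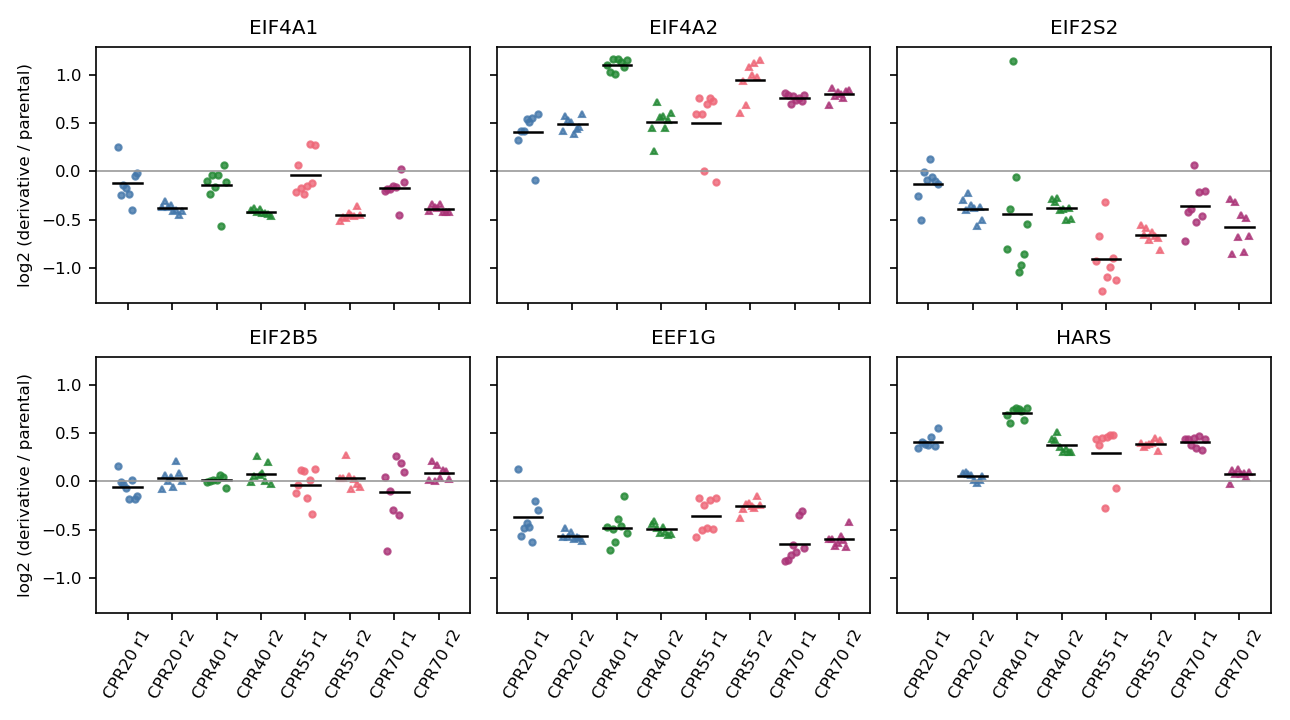
Log2 ratio (vertical axis) at each of the 8 spots of 6 member clones on each array (horizontal axis, r1 and r2 for the replicate numbers), with the array mean as a bar. EIF4A2 and HARS lie almost wholly above 0, EEF1G, EIF2S2 and EIF4A1 almost wholly below, and EIF2B5 around 0.

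The synthetases held the 3 largest falls among the called members. YARS, which charges tyrosine tRNA, read 0.17 and -1.02 in CPR20, -1.02 and -0.96 in CPR40, -1.51 and -0.77 in CPR55, and -0.68 and -1.05 in CPR70. It was lower on 7 of 8 arrays, the exception being the CPR20 replicate 1 array. The mean was -0.85 ± 0.16 (SE; limma adjusted p = 0.0128), which is 1.81-fold lower, and the call held in 19 of 21 alternatives.

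GARS, for glycine, read -0.07 and -0.36 in CPR20, -1.15 and -0.36 in CPR40, -1.61 and -0.85 in CPR55, and -0.58 and -0.59 in CPR70. Every array was lower, with the least shift in CPR20 and the deepest in CPR55. The mean was -0.70 ± 0.14 (limma adjusted p = 0.0161), 1.62-fold lower. The call held in 14 of 22 alternatives and was lost with median centring (-0.44, adjusted p = 0.197).

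AARS, for alanine, had the same order of derivatives. It read -0.02 and -0.25 in CPR20, -1.13 and -0.23 in CPR40, -1.18 and -0.63 in CPR55, and -0.70 and -0.22 in CPR70, and was lower on all 8 arrays. The mean was -0.54 ± 0.14 (limma adjusted p = 0.0426), 1.46-fold lower. Of these 3 calls it was the least stable, held in 7 of 22 alternatives with an adjusted p from 0.0144 to 0.355.

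MARS, for methionine, had the lowest mean of all members and did not pass. Its brightest clone read -0.09 and -0.35 in CPR20, -2.02 and -0.58 in CPR40, -2.13 and -0.24 in CPR55, and -1.83 and -0.27 in CPR70. The replicate 1 arrays of CPR40, CPR55 and CPR70 stood far below the other 5 arrays. The mean was -0.94 ± 0.27 (limma adjusted p = 0.0648, and 0.0171 with the block, in a range of 0.0171 to 0.574), and its sign turned in 1 of 22 alternatives, to 0.19 with normexp. A second clone, dim in both channels, gave -0.04.

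TARS, for threonine, IARS, for isoleucine, and NARS, for asparagine, were lower on all 8 arrays and did not pass. TARS had a mean of -0.58 (limma adjusted p = 0.0533) with values from -1.13 to -0.12. IARS had a mean of -0.40 (0.0654) with values from -0.97 to -0.20, and NARS a mean of -0.42 (0.0788) with values from -0.97 to -0.04. With the replicate block these 3 passed, at adjusted p = 0.0104, 0.0367 and 0.0201, and over all alternatives they passed in 7 of 22, 2 of 21 and 3 of 22. CARS, for cysteine, had a mean of -0.46 (limma adjusted p = 0.231) with values from -1.59 to 0.21, and its second clone gave -0.56.

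HARS and KARS lay above the parental line. HARS, for histidine, was higher on all 8 arrays, from 0.05 to 0.71, with a mean of 0.34 ± 0.11 that did not pass (limma adjusted p = 0.0810). Its other clones gave 0.36 and 0.13. KARS, for lysine, was higher on 6 of 8 arrays, with a mean of 0.37 ± 0.12 (limma adjusted p = 0.103). Both passed with the replicate block, at 0.0342 and 0.0329, and over all alternatives in 2 and 3 of 22. QARS, for glutamine, was lower on all 8 arrays but by little, from -0.36 to -0.12, and SARS, for serine, and DARS, for aspartate, had means of -0.17 and -0.04. None of these 3 passed in either fit. DARS lay between -0.56 and -0.16 on the replicate 1 arrays and between 0.21 and 0.32 on the replicate 2 arrays, so its mean stands for neither set.

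Set beside the promoter sequences above, the 7 synthetases with TGATGNAA in the window had means from -0.94 to -0.40, with a median of -0.54. The 4 with a window and no match, HARS, KARS, QARS and SARS, had means from -0.23 to 0.37, with a median of 0.09. In the first fit the 2 sets of means did not overlap, but with normexp the mean of MARS was 0.19. The SARS clone was above the empty spots on 4 arrays in red and 3 in green. DARS and YARS had no window in the table, at -0.04 and -0.85. These are descriptions of genes sorted after their values were known, with no test. The array values of genes outside translation that hold these letters were not compared. WARS, left out by the naming rule, had a mean of -1.81 and no match in either of its 2 windows.

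The separation lay mainly in the replicate 1 arrays. There the means of the genes with a match ran from -1.52 to -0.52 and those without from -0.27 to 0.57. In the replicate 2 arrays they ran from -0.54 to -0.004 and from -0.24 to 0.22, and overlapped. On single arrays, the median of the 7 genes with a match was -0.09 in CPR20, -1.01 in CPR40, -1.13 in CPR55 and -0.70 in CPR70 on replicate 1, and between -0.27 and -0.23 on all 4 replicate 2 arrays. At least 6 of the 7 were below 0 on every array.

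**Figure D4:**
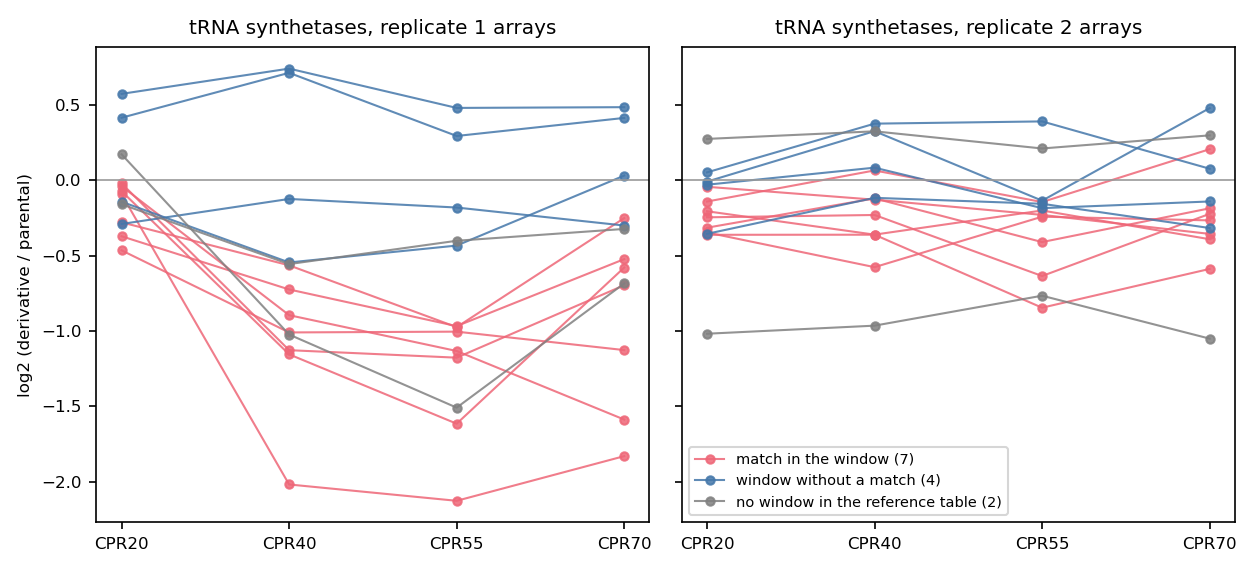
Log2 ratio (vertical axis) of the 13 synthetases in each derivative (horizontal axis), on the replicate 1 arrays (left) and the replicate 2 arrays (right). Red lines are the 7 genes with TGATGNAA in the promoter window. Their median reaches -1.13 in CPR55 on the left and stays between -0.27 and -0.23 on the right. Single genes among them run from -0.85 to 0.21 on the right.

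Another sequence feature of many translation genes in mammals is a run of pyrimidines at the very start of the message, through which the mTOR pathway controls its translation. A C followed by at least 4 further C or T from the annotated start was found in 8 of the 42 members with a window, beside 5.14% of all genes with one. Their log2 ratios covered both directions, from -0.64 for EIF4B to 0.69 for EIF4A2. The run, in capitals, is shown for the called EEF2 and EIF4A2 and for EEF1A1, which did not pass, with the 20 bases from the start.
EEF2, chr19:3985444-3985463, minus strand: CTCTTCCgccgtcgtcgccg
EIF4A2, chr3:186783577-186783596, plus strand: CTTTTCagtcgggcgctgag
EEF1A1, chr6:73521013-73521032, minus strand: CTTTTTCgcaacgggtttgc
EEF2 fell, EIF4A2 rose and EEF1A1 had a mean of -0.10. These 3 were picked with their values known, so they cannot show whether the letters at the start sort genes by direction.

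By derivative and without the replicate block, no member passed the test against the parental line in any of the 4, where 0.549% of all genes were called in CPR20, 0.671% in CPR40, 0.681% in CPR55 and 1.55% in CPR70. The smallest adjusted p of a member was 0.461 in CPR20, 0.214 in CPR40, 0.128 in CPR55 and 0.120 in CPR70. At an unadjusted p under 0.05, limma gave 1, 10, 8 and 8 of the 52 members, beside 10.1%, 12.4%, 11.7% and 14.9% of all genes. With the replicate block, 1 member was called in CPR55 and 1 in CPR70, where 1.41% and 4.05% of all genes were, and 0 in CPR20 and CPR40, where 1.38% and 1.72% were. The first was EIF4EBP1, at -1.16 ± 0.16 in CPR55 (limma adjusted p = 0.0351, and 0.573 without the block). The second was EIF5A2, at 0.87 ± 0.16 in CPR70 (limma adjusted p = 0.0436, and 0.120 without the block).

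The synthetase medians were -0.21 in CPR20, -0.43 in CPR40, -0.60 in CPR55 and -0.44 in CPR70. CPR20 was the highest of the derivatives for 9 of 13 synthetases (69.2%, and 25.5% of all genes), and CPR55 was the lowest for 8 of 13 (61.5%, and 26.6% of all genes). Initiation factors had medians of 0.06, -0.02, -0.03 and -0.06, and elongation factors -0.18, -0.11, -0.22 and -0.33. The order of the synthetase medians was that of the replicate 1 arrays, which gave -0.09, -0.72, -0.97 and -0.52 from CPR20 to CPR70. The replicate 2 arrays gave -0.21, -0.12, -0.20 and -0.22, with CPR40 the highest and CPR70 the lowest. In neither set did the order follow the number in the name throughout.

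Differences among derivatives did not pass for any member. The slope against the number in the name, the contrast of CPR70 with CPR20, and the test for a difference of any kind gave 0 calls of 52 each, and 0% of all genes were called in each. At an unadjusted p under 0.05, limma gave 1 member in each, beside 1.73%, 1.82% and 2.42% of all genes. CPR70 minus CPR20 was -0.83 ± 0.76 for MARS, -0.44 ± 0.45 for YARS, -0.37 ± 0.38 for GARS and 0.33 ± 0.32 for EIF4A2. A clone's dye effect cancels in these differences, and none of the 4 passed.

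The replicate 1 arrays and the replicate 2 arrays differed from each other in several members, and this was tested after their values were seen. In the fit with the replicate block, the difference between the sets was called for 1 of 52 members, beside 0.0813% of all genes (8 genes). That member was EIF4EBP1, which was lower by 1.81 in replicate 2, at -1.81 ± 0.16 (limma adjusted p = 0.0489). EIF5 differed by 1.60 ± 0.21 the other way (limma adjusted p = 0.0591), and EIF4B by 0.96 ± 0.17 (limma adjusted p = 0.0747). None of the 3 had overlapping sets. The sets also did not overlap in EIF3S4, EIF3S8, DARS, TARS, NARS, KARS, EIF4A1, EIF5A, EIF2B2 and EIF2B5. The share of all genes with such sets was not counted, so this list is not read as a trait of the members. By contrast EIF4A2, EIF2S2 and EEF1G differed between the sets by -0.01, -0.04 and -0.02. The labels do not say what the replicate number stands for.

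**Figure D5:**
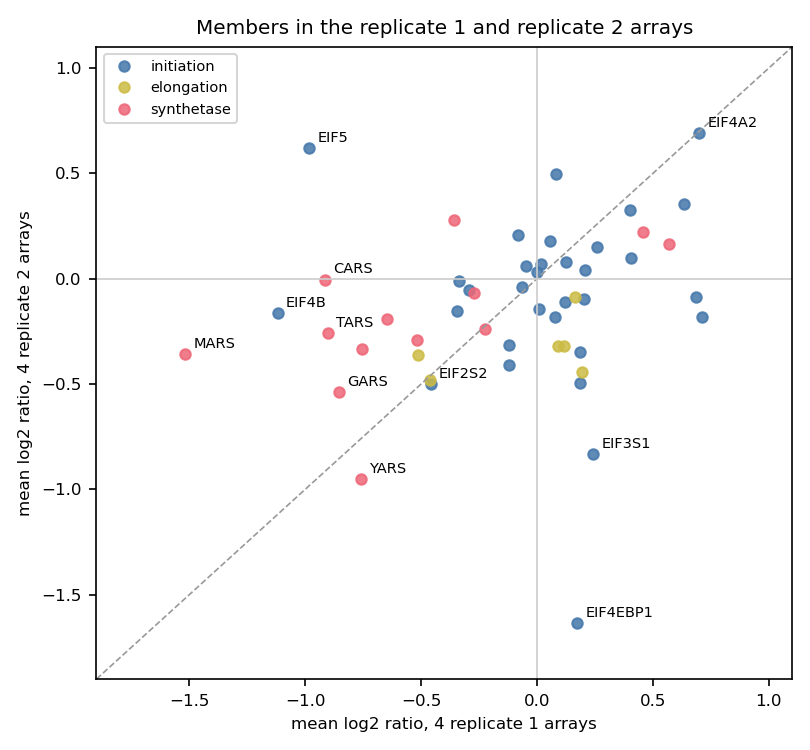
Mean log2 ratio of 51 members over the 4 replicate 1 arrays (horizontal axis) and the 4 replicate 2 arrays (vertical axis), coloured by class, with equality as the dashed line. EIF4A2 and EIF2S2 lie on the line, while EIF4EBP1 (0.17 and -1.64) and EIF5 (-0.98 and 0.62) lie far from it.

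For 15 members with more than 1 clone, 12 had all clones on the same side of 0, and the median gap between clones was 0.125. The exceptions were EIF2S1, described above, and EIF3S6 and EIF3S8, whose clones did not pass. The widest gap was that of MARS, 0.89.

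Among other genes of translation (synthetases named otherwise, release and mitochondrial factors, poly(A)-binding proteins and regulatory kinases), 37 of 60 listed were measured. In the mean of the derivatives 1 rose, 1 fell and 35 did not pass, with a median of 0.03. Of all genes, 6.84% were called higher and 4.89% lower. PABPC1, the main cytoplasmic poly(A)-binding protein, was higher on all 8 arrays, from 0.09 to 0.75, with a mean of 0.40 ± 0.10 (limma adjusted p = 0.0453). RPS6KB1, the ribosomal S6 kinase, was lower on 7 of 8 arrays, from -0.61 to 0.09, with a mean of -0.40 ± 0.10 (limma adjusted p = 0.0439). With the replicate block, 2 of the 37 rose and 2 fell, beside 11.1% and 9.21% of all genes.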

How the data were processed

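Spotted cDNA arrays compared RNA of 4 resistant derivatives (Cy5) with parental RNA (Cy3), 2 arrays per derivative. The deposited table holds a red and a green intensity per spot on a linear scale, a calibrated ratio (the authors' red over green, scaled per array) and a spot area, an other value used only to tell found from missed spots. The deposited series matrix holds log2 ratios of the same arrays, and both authors' ratios served as alternatives. The scanner and software are not given in the sources used here. A further 8 value columns belong to no listed sample and were set aside.

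From the intensities, 50 was added, log2 ratios were normalised by loess within each array, 233 empty and 700 no-data control spots were left out, and spots of a clone were averaged. Clones with a value in each derivative were kept (13186, with 154 left out). limma 3.58.1 in R 4.3.3 fitted the derivative means, and Benjamini-Hochberg adjustment ran over all clones. Of the members, 49 of 52 had values on all 8 arrays. EIF2S1 and EIF3S6 lacked 1 array each, and a missing value was left out of the fit. A spot counted as above the empty spots when it exceeded their median by 2.6 scaled median absolute deviations on that array. The number of arrays limits the precision.

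Replicate numbers were read as pairing the arrays, since the deviations of same-numbered arrays correlated at 0.23 to 0.364 for every pair of derivatives. The fit reported first leaves this pairing out, and the fits with the replicate block include it. The steps were tested on simulated data. Genes named in full were those called, the 3 with the largest mean per class, genes whose clones disagreed with 1 called, and other translation genes called. All further members named were chosen after their values were seen. The members, lists and motifs were chosen with earlier results of these data known. Promoter letters were read from RefSeq (GRCh38.p14), which held a window for 42 of 52 members.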

Additional observations from a re-analysis of the deposited data

How the results depend on the processing

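The 8 called members kept their sign in the alternatives that gave them a value, but the counts of members called in the mean (2 higher, 6 lower) depended on the normalisation. The higher and lower counts were 1 and 1 with median centring, 1 and 1 with normexp, 0 and 1 with the authors' deposited calibrated ratio, and 0 and 1 with the series matrix values. The higher count was 1 with no offset and 1 with the mean over the clones of a gene. Among clones above the empty spots in at least 1 channel on all arrays, which leaves 30 members, 4 were higher and 11 lower. There 1 was called in CPR40, 2 in CPR55 and 2 in CPR70, and the elongation median was -0.44. The share of all genes called under this filter was not counted, so no excess of calls among the members is read from these counts. Of the alternatives, only the fixed replicate block has such shares. With the replicate block as a fixed term, 5 were higher and 12 lower, and 1 was called in CPR55 and 1 in CPR70. As a random term, 1 was higher and 0 lower. The replicate 1 arrays alone called 4 higher, and 7 of the 8 members first called were not called there, the exception being EIF4A2. On these arrays 8 other members were called with an unchanged sign. On the replicate 2 arrays alone, 2 of the 8 members first called were not called, and 5 other members were called with an unchanged sign. The initiation median was 0.11 with median centring and 0.081 on the replicate 1 arrays. Leaving out 1 array at a time gave 1 to 1 higher and 1 to 7 lower, with 1 lower without CPR20 replicate 2 and 2 lower without CPR55 replicate 1 or CPR70 replicate 2. The synthetase median stayed between -0.51 and -0.33 on leaving out 1 array. Loess within print blocks was not run, since the table gives no blocks. The cause of these differences was not tested. Dim clones, such as those of EIF4E, EIF4G2 and EIF5A2, give ratios that rest in part on background.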
